A study of Mus musculus with 2 samples.

Results

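The 9 genes described here belong to hedgehog signalling from epithelium to mesenchyme, and they were taken from the 20104 genes that could be tested. In which cells of these ureters they were expressed was not measured. They were chosen by name: the ligand genes Shh and Ihh, the receptor gene Ptch1 and the antagonist gene Hhip, the transcription factor genes Gli1, Gli2 and Gli3, and the forkhead genes Foxf1 and Foxl1. They have 13 of the 39429 probes on the array, and all 9 of 9 genes had a probe that passed the filter on dim signals. The probe that stood for each gene was well above background in knockout and in control on both arrays, so no gene entered through one genotype alone.

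Hedgehog ligands are secreted proteins that bind Patched receptors on nearby cells. Binding releases the membrane protein Smoothened from inhibition, and GLI factors then switch target genes on or stop repressing them. Ptch1, Hhip and Gli1 are themselves widely used target genes, so their transcripts are read as a measure of the signal. In the developing mouse ureter the ligand is made by the epithelium and received by the mesenchyme, where the signal supports growth and the formation of smooth muscle.

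The knockout ureters came from E14.5 mouse embryos of the NMRI strain whose source label is Smad4cKO (UE). Their genotype is labelled Pax-cre/+;Smad4(fl/fl), and the series title spells the driver Pax2-cre. The control ureters came from embryos labelled Smad4(fl/?) of the same strain and stage, with the state of the second allele not given. SMAD4 is the shared partner of the SMAD proteins that BMP and TGF-beta receptors activate, and the labels do not spell out UE. Pax2 is known from the nephric duct and the ureteric epithelium that grows from it, so a Pax2 driver would act there, and other cells of the ureter may still have the gene. In which cells the driver was active was not measured.

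Each of 2 two-colour arrays held 1 knockout and 1 control sample of dissected ureters. On replicate 1 both samples were from females and the knockout carried Cy3; on replicate 2 both were from males and the knockout carried Cy5. Sex and dye therefore changed together and cannot be told apart, and the labels do not state how many embryos make up a sample. The p-values rest on the spread between these 2 arrays and, for the larger part, on a spread pooled over all genes, so a gene whose arrays lie close together has no narrower an interval than that pool allows. With 2 arrays, precision is low throughout.

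All ratios are log2 of knockout over control by the dyes in the labels, so a negative value means a lower signal in knockout. By those dyes, the authors' deposited table runs the other way on both arrays, although its titles name the knockout first. If the dyes in the labels were exchanged, every sign here would turn, for the hedgehog genes and all others alike. Over all genes tested, the ratios of the arrays had a Pearson correlation of 0.017, and 53.7% of genes had opposite signs on them. Among all genes, 66 passed the test (limma with Benjamini-Hochberg adjustment over 20104 genes, adjusted p below 0.05), which is 0.328%. On simulated data this test called more unchanged genes than its threshold allows. Smad4, the targeted gene, had a brighter probe at -0.58 on replicate 1 and -0.08 on replicate 2 and a dimmer probe at -0.09 and -0.33. The mean of the brighter one was -0.33 ± 0.36 (SD, n = 2 arrays), it did not pass, and whether either probe lies in the floxed part was not determined, so Smad4 does not check the labels. Markers of both compartments were well above background: the mesenchymal gene Tbx18 had intensities of 9588 in knockout and 10847 in control on replicate 1, and the umbrella cell gene Upk1a had 6174 in knockout and 2690 in control.

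None of the 9 hedgehog genes passed the test, but 8 of the 9 had a ratio below 0 on both arrays, against 24.6% of all genes tested. No hedgehog gene was above 0 on both arrays, where 21.7% of all genes stood. At an unadjusted p under 0.05, 7 of 9 were lower in knockout (all except Shh and Gli3), against 2.46% of all genes. None of the 9 was at least 1.5-fold lower on both arrays, a size that 0.104% of genes reached. The median ratio of the 9 genes was -0.58 on replicate 1 and -0.27 on replicate 2, where the medians over all genes were -0.01 and -0.0034. These genes were named with earlier results of the same arrays in view, so their shared direction is given as a description. In whole ureters, a smaller share of a cell type and less RNA per cell cannot be told apart.

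**Figure D1:**
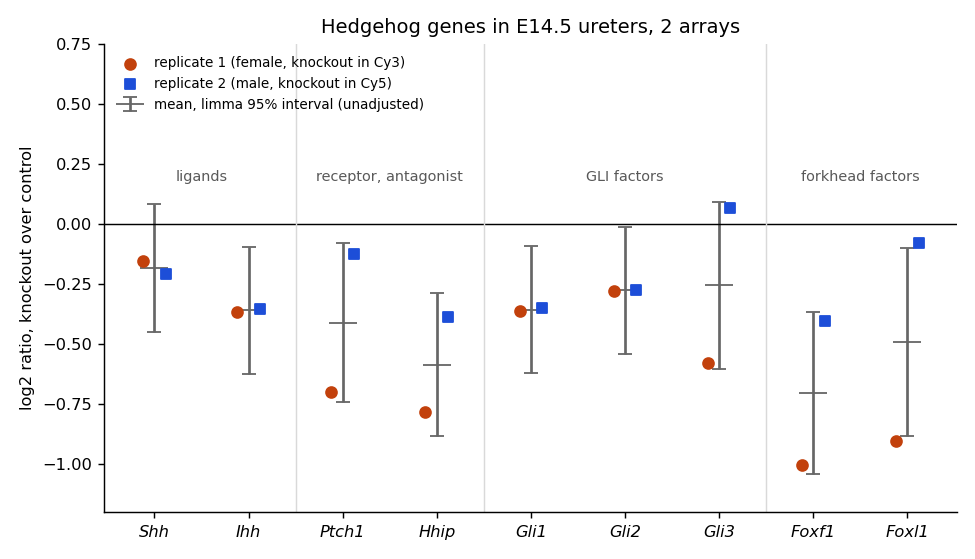
Log2 ratio of knockout over control for each of the 9 hedgehog genes, grouped by role, with a circle for replicate 1 (female), a square for replicate 2 (male), and the mean with its unadjusted limma 95% interval. All points lie below 0 except Gli3 on replicate 2 at 0.07, and the arrays lie close together for Shh, Ihh, Gli1 and Gli2 and far apart for the others.

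The probes on which the main differences rest are shown by sequence, to make clear what was hybridised and what those letters share with other genes. Each was read from the array files, 5′ to 3′, in lower case, with mm9 coordinates as the array files give them; no exon or UTR annotation of mm9 was used here. Capitals mark bases in stretches of at least 16 that also occur in a probe or RefSeq promoter of another gene on either strand. The upstream probes of Foxf1 and Ptch1 are given whole, and of the others 30 of 60 bases are shown.
Foxf1, brighter probe, first 30 bases (chr8:123611944-123612003, plus strand): cctcctttctgcactgtataaaagggacaa
Foxf1, dimmer probe (chr8:123610681-123610740, plus strand): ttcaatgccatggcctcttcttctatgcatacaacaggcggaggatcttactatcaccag
Foxl1, last 30 bases (chr8:123654402-123654461, plus strand): gtatgccgtgcatCACACCTGTAATCTCAG
Hhip, brighter probe, first 30 bases (chr8:82494280-82494339, minus strand): gcagtagccttcatctgtaggttaatagtc
Hhip, dimmer probe, last 30 bases (chr8:82490729-82490788, minus strand): ttctagtaggaaaatcttgtgtcttccttg
Ptch1, brighter probe, first 30 bases (chr13:63610298-63610357, minus strand): catttggatgttttaatttgtaaaagaaaa
Ptch1, dimmer probe (chr13:63612879-63612938, minus strand): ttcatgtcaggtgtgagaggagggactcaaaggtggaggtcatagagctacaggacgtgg
Gli1, brighter probe, last 30 bases (chr10:126766967-126767026, minus strand): GAAAGAACAAACTTTAATAATGACACAGTT
Ihh, last 30 bases (chr1:74991906-74991965, minus strand): atgttttggtcTTTCTTTTGTAATAAAaat

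Both Foxf1 probes and both Hhip probes share no such stretch with another gene's probe or promoter. The brighter Ptch1 probe shares 16 bases, at positions 41 to 56 from its 5′ end and so beyond those shown, with 1 promoter of another gene. The brighter Gli1 probe shares a stretch with 1 promoter of another gene as well. It also shares 23 bases with the probe of Arhgap9 on the opposite strand, and Arhgap9 read -0.03 and 0.04 on the 2 arrays. The Ihh probe shares 16 bases with the probe of Bcl3, which read -0.08 and 0.08. The Foxl1 probe shares 17 bases with a probe of the predicted gene Gm38405 that did not pass the filter. Among probes not shown, that of Gli2 shares 16 bases with a probe of Crisp3. The dimmer Gli1 probe has 17 bases that occur in promoters other than its own. Whether the shared letters affected any ratio was not tested.

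Among the ligands, Ihh was lower in knockout on both arrays at nearly the same ratio, and Shh was less so. Ihh, which encodes Indian hedgehog, had intensities of 1606 in knockout and 2071 in control on replicate 1, and 1251 in knockout and 1597 in control on replicate 2. Its mean ratio was -0.36 ± 0.01 (SD, n = 2), or 1.28-fold lower, with a 95% interval of -0.62 to -0.09 and an adjusted p of 0.678 by limma. Knockout was lower on each array, although the control signal of replicate 2 was about as low as the knockout signal of replicate 1; intensities were not scaled between the arrays.

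Shh, which encodes Sonic hedgehog, the ligand known from the mouse ureter epithelium, had intensities of 247 in knockout and 275 in control on replicate 1, and 202 in knockout and 233 in control on replicate 2. Its ratios of -0.16 and -0.21 gave a mean of -0.18 ± 0.04 (SD, n = 2), with a 95% interval of -0.45 to 0.08 that spans 0 (limma adjusted p = 1.00). The Shh probe is the only one for this gene, at chr5:28783983-28784042 on the minus strand, and 3 of its 4 spots were used on replicate 2. Of its 60 bases, 31 lie in stretches of at least 16 that also occur in 2 RefSeq promoters other than its own. With Agilent's own processed signals in place of the normalised ones, Shh had a mean ratio of -0.31, over 1.5 times as far from 0.

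Both ligand genes had ratios below the median of a list of general epithelium genes. All 16 general epithelium genes on the list (Cdh1, Epcam, keratins, claudins and others) were measured and none passed (limma). At an unadjusted p under 0.05 (limma), 5 were higher in knockout, against 420 of all 20104 genes. Of the 16, 15 were above 0 on both arrays, against 21.7% of all genes, with medians of 0.26 and 0.20. Ihh lay 0.62 log2 units under that median on replicate 1 and 0.55 under it on replicate 2, and none of the 16 genes was lower than Ihh on either array. Shh lay 0.41 under the median on each array, with 1 of the 16 genes lower on replicate 1 and none on replicate 2. The summed intensity of the 16 genes was 267091 in knockout and 228918 in control on replicate 1, and 230496 in knockout and 211583 in control on replicate 2.

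Hhip and Ptch1, the receptor-level target genes, were lower in knockout on both arrays, and more so on replicate 1. Hhip encodes a membrane protein that binds and sequesters hedgehog ligands. Its brighter probe had intensities of 2930 in knockout and 5049 in control on replicate 1, and 2866 in knockout and 3751 in control on replicate 2. Both knockout values were below both control values, although intensities were not scaled between the arrays. The mean ratio was -0.59 ± 0.28 (SD, n = 2) with a 95% interval of -0.89 to -0.29 (limma unadjusted p = 0.00134, adjusted p = 0.198). Its dimmer probe read -0.21 and -0.29, so the probes of Hhip have the same sign but differ in size, mainly on replicate 1. With Agilent's processed signals the dimmer probe read -0.37 and -0.45, and the brighter one -0.79 and -0.39.

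Ptch1 encodes the receptor Patched 1, which holds the pathway off when no ligand is bound. It had intensities of 864 in knockout and 1403 in control on replicate 1, and 846 in knockout and 921 in control on replicate 2. The ratios of -0.70 and -0.12 gave a mean of -0.41 ± 0.41 (SD, n = 2), with a 95% interval of -0.74 to -0.08 and an adjusted p of 0.861 by limma. The second Ptch1 probe, at other coordinates on chromosome 13, read -0.70 and -0.21. Both probes therefore placed the knockout signal lower on each array, and both placed most of that difference on replicate 1.

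**Figure D2:**
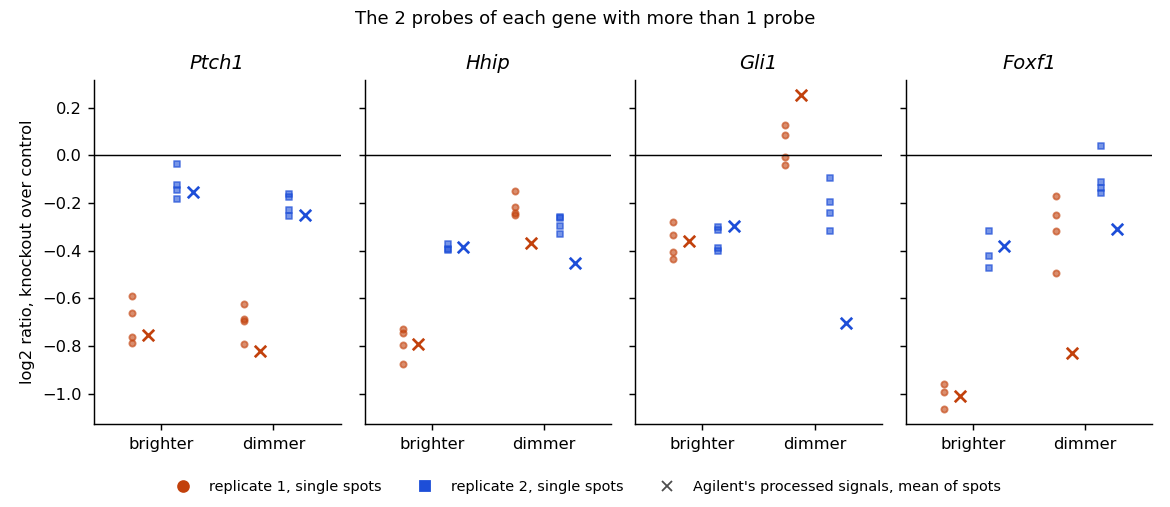
Log2 ratio of knockout over control of single spots (circles for replicate 1, squares for replicate 2) and of Agilent's processed signals (crosses) for the brighter and the dimmer probe of Ptch1, Hhip, Gli1 and Foxf1. The Ptch1 probes lie together, and the single spots of the dimmer Hhip and Foxf1 probes lie nearer to 0 than those of the brighter ones. With processed signals, the dimmer Hhip probe lies further from 0 than the brighter one on replicate 2. The dimmer Gli1 probe, which did not pass the filter, is spread around 0 on replicate 1.

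Among the GLI genes, Gli1 and Gli2 had nearly the same ratio on both arrays, and Gli3 had opposite signs. Gli1 encodes an activator that is itself switched on by the signal. It had intensities of 30782 in knockout and 39615 in control on replicate 1, and 29832 in knockout and 38072 in control on replicate 2. Both knockout values were below both control values, although intensities were not scaled between the arrays. The mean ratio was -0.36 ± 0.01 (SD, n = 2), or 1.28-fold lower, with a 95% interval of -0.62 to -0.09 and an adjusted p of 0.688 by limma. A second Gli1 probe was above background in only some spots and did not pass the filter. Its ratios were 0.04 and -0.21, and 0.25 and -0.70 with Agilent's processed signals, so its sign differed from the brighter probe's on replicate 1.

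Gli2 encodes the main activator that responds first to the signal. Its intensities were 1223 in knockout and 1483 in control on replicate 1, and 1119 in knockout and 1354 in control on replicate 2. Both ratios were close to -0.28, the interval was -0.54 to -0.01, and the adjusted p was 1.00 (limma). Knockout lay below control by a like amount on each array, 1.21-fold on both.

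Gli3 encodes the factor that acts mainly as a repressor when the signal is absent. It had intensities of 9821 in knockout and 14658 in control on replicate 1, and 10561 in knockout and 10088 in control on replicate 2. The ratios were -0.58 and 0.07, the mean was -0.26 ± 0.46 (SD, n = 2), and the interval of -0.60 to 0.09 spans 0 (limma adjusted p = 1.00). The knockout values of the arrays were alike, and the control of replicate 1 stood apart from the other 3 samples.

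The forkhead genes had the lowest ratios of the 9 genes on replicate 1. Foxf1 encodes a mesenchymal transcription factor that hedgehog signals induce in mouse gut and lung, and in the ureter it is likewise known as a mesenchymal hedgehog target. Its intensities were 6031 in knockout and 12099 in control on replicate 1, and 5725 in knockout and 7569 in control on replicate 2. Both knockout values were below both control values, although intensities were not scaled between the arrays. Within each array the knockout was lower, by 2.01-fold on replicate 1 and 1.32-fold on replicate 2. The mean ratio was -0.70 ± 0.43 (SD, n = 2), with a 95% interval of -1.04 to -0.37 (limma unadjusted p = 0.000878, adjusted p = 0.163). Over all 20104 genes, 51 had a lower ratio than Foxf1 on replicate 1 and 146 on replicate 2.

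The dimmer Foxf1 probe lies 1203 bases upstream of the brighter one and read -0.31 and -0.09. Its intensities were 132 in knockout and 163 in control on replicate 1, and 109 in knockout and 116 in control on replicate 2, close to the floor of the scale. In knockout, 3 of its 4 spots cleared the background on replicate 1 and 1 of 4 on replicate 2, while all 4 did in control on each array. With Agilent's processed signals the same probe read -0.83 and -0.31, near the brighter probe's -1.01 and -0.38, so the gap between the probes depends on which signal is used.

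Foxl1 encodes a forkhead factor of mesenchymal cells that lie against epithelium. It had intensities of 4518 in knockout and 8464 in control on replicate 1, and 4921 in knockout and 5196 in control on replicate 2. The ratios of -0.91 and -0.08 gave a mean of -0.49 ± 0.58 (SD, n = 2), with an interval of -0.88 to -0.10 and an adjusted p of 0.824 by limma. On replicate 1 only 80 genes had a lower ratio, whereas on replicate 2 there were 5531. The size of the Foxl1 mean therefore comes from replicate 1.

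Foxf1 and Foxl1 lie near each other on chromosome 8, with 42398 bases between their probes, so other genes at that place were read beside them. Of Foxc2, Mthfsd and Irf8, none passed the test (limma; 0 at an unadjusted p under 0.05), against 0.328% of all genes. Below 0 on both arrays was 1 of 3, against 24.6% of all genes, too few genes to tell from that share. Foxc2, a forkhead gene between them, read -0.51 and -0.07. Irf8 read -0.36 and 0.06, and Mthfsd read 0.26 and -0.20. The probe of Fendrr, the long non-coding RNA gene next to Foxf1, did not pass the filter.

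**Figure D3:**
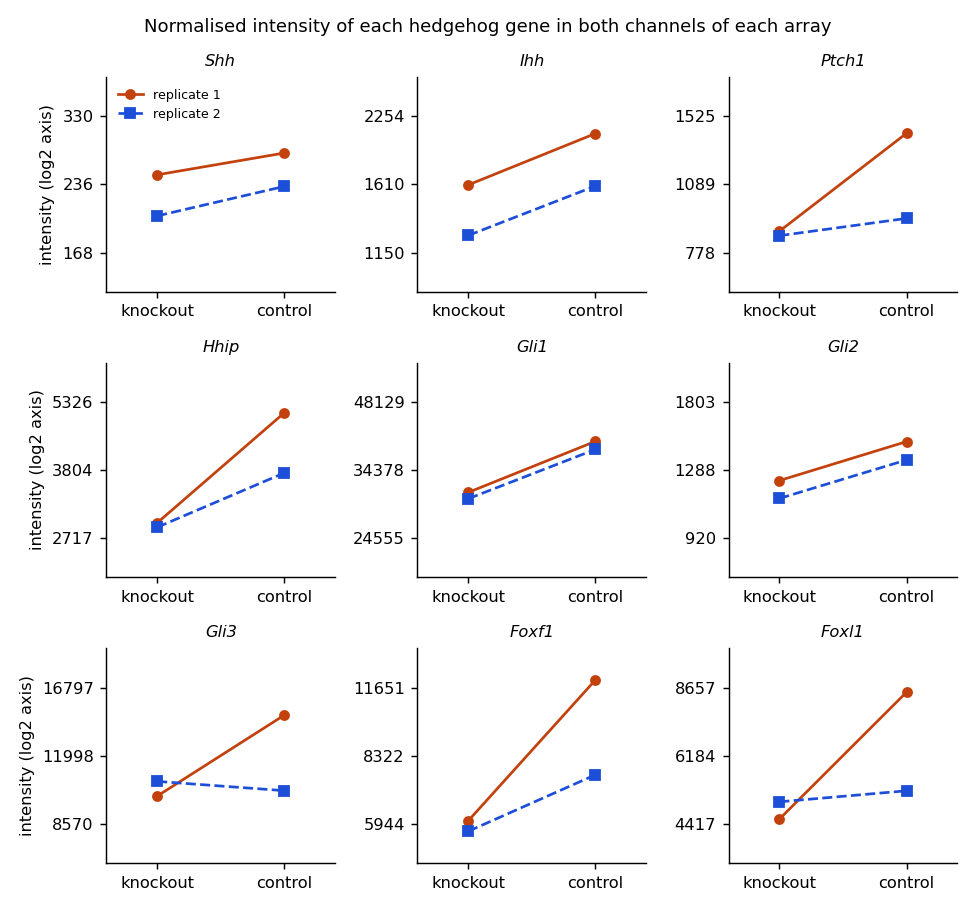
Normalised intensity (log2 axis) of each of the 9 hedgehog genes in knockout and control, with a circle and solid line for replicate 1 and a square and dashed line for replicate 2. Lines climb towards control for every gene except Gli3 on replicate 2, and for Ptch1, Hhip, Gli3, Foxf1 and Foxl1 the knockout points of the arrays lie close together while the control points do not.

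A further pattern was noticed in these intensities after their values had been seen. For Ptch1, Hhip, Gli3, Foxf1 and Foxl1 the knockout signal differed little between the arrays, from -0.12 (Foxl1) to 0.08 (Foxf1) as log2 of replicate 1 over replicate 2. The control signal of the same 5 genes was higher on replicate 1, by 0.43 (Hhip) to 0.70 (Foxl1). Over all genes the median of that difference was 0.13 in knockout and 0.15 in control, with an upper quartile of 0.30 in control. Gli1 and Gli2 differed by 0.05 and 0.13 in knockout and by 0.06 and 0.13 in control. The pattern was not particular to hedgehog genes. Pdgfrb had it, with 5481 and 5364 in knockout and 8066 and 5703 in control on replicates 1 and 2. So did the brighter Smad4 probe, with 20316 and 21708 in knockout and 30444 and 22965 in control. The dimmer Smad4 probe did not, with 6714 and 5517 in knockout and 7157 and 6946 in control. How many genes had the pattern was not counted. The control of replicate 1 was female and in Cy5 and that of replicate 2 male and in Cy3, so sample, sex and dye cannot be told apart as the source of this spread.

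The mesenchymal members were set beside other mesenchymal genes of the same ureters. Of 14 ureteric mesenchyme markers, all measured, none passed (limma), against 0.328% of all genes. At an unadjusted p under 0.05 (limma), 2 were lower in knockout, against 2.46% of all genes. Another 2 were higher, against 420 of all 20104. Below 0 on both arrays were 7, against 24.6% of all genes, and above 0 on both were 4, against 21.7%, with medians of -0.09 and 0.02. Foxf1 lay 0.91 under that median on replicate 1 and 0.42 under it on replicate 2, and none of the 14 was lower on either array. Hhip lay 0.70 and 0.41 under it, with 1 marker lower on replicate 1 and none on replicate 2. Gli1 lay 0.27 and 0.37 under it, with 4 markers lower on replicate 1 and none on replicate 2. Gli2 lay 0.19 and 0.29 under it, with 4 markers lower on replicate 1 and 2 on replicate 2. Foxl1 lay 0.82 and 0.10 under it, with 1 marker lower on replicate 1 and 4 on replicate 2, and Ptch1 lay 0.61 and 0.14 under it, with 1 and 2 markers lower. Gli3 lay 0.49 under the median on replicate 1, with 2 markers lower, and 0.05 above it on replicate 2, with 10 of the 14 lower.

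The markers with the largest mean ratios were Col1a1, a collagen gene, at -0.48 ± 0.19, Aldh1a1, a retinoic acid synthesis gene, at 0.45 ± 0.16, Col1a2 at -0.41 ± 0.72 and Pdgfrb, a growth factor receptor gene, at -0.32 ± 0.33 (SD, n = 2). The summed intensity of the 14 was 745474 in knockout and 889616 in control on replicate 1, and 781533 in knockout and 795803 in control on replicate 2, lower in knockout on both arrays. Without the 3 collagen genes the sum was higher in knockout on both, at 434137 in knockout and 414555 in control on replicate 1, and 415046 in knockout and 395280 in control on replicate 2. Dcn, with the highest intensities of the remaining 11, had 177436 in knockout and 135611 in control on replicate 1, and 155852 in knockout and 136816 in control on replicate 2. The direction of the sum therefore depends on which bright genes it holds. The part of these markers in the hedgehog ratios was not tested.

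**Figure D4:**
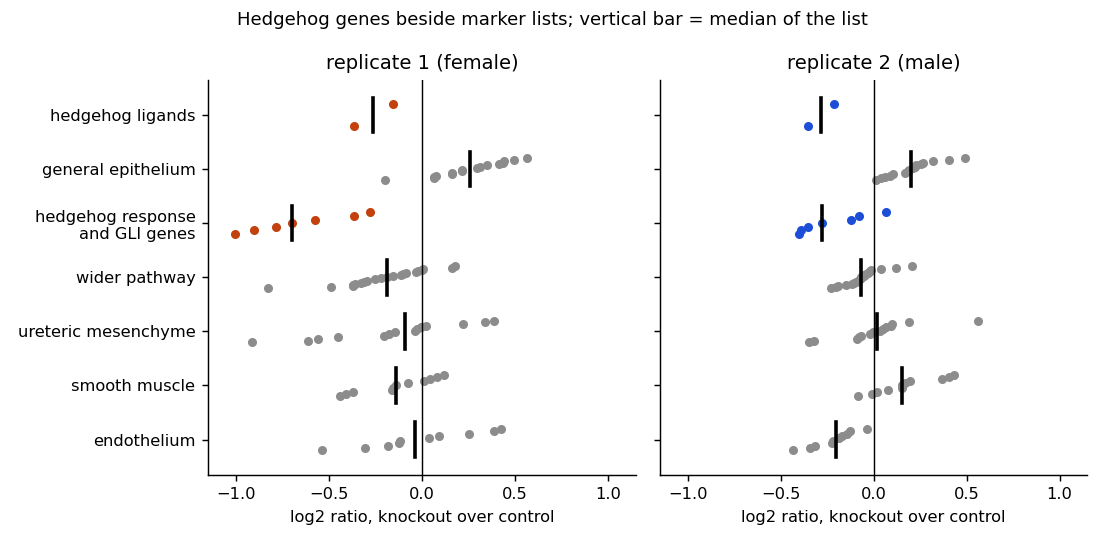
Log2 ratio of knockout over control of every gene in each list (points) and the list's median (vertical bar), for replicate 1 and replicate 2 separately. The hedgehog ligands lie left of the median of the general epithelium genes on both arrays, with 1 epithelial gene left of Shh on replicate 1, and the hedgehog response and GLI genes have a lower median than the ureteric mesenchyme and smooth muscle lists on both arrays.

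Other components of the pathway had list medians closer to 0 than the hedgehog genes above, although Dhh lay further from 0 than most of those. Of 21 wider pathway genes (the ligand gene Dhh, release and uptake factors, co-receptors, Smo, Sufu and cilium genes), all were measured and none passed (limma), against 0.328% of all genes. At an unadjusted p under 0.05 (limma), 1 was lower in knockout, against 2.46% of all genes. Below 0 on both arrays were 15 of the 21, against 24.6% of all genes, and above 0 on both was 1, against 21.7%. The medians were -0.19 and -0.07. Dhh, the third mammalian ligand gene, known from Schwann and Sertoli cells, read -0.83 and -0.19, with a mean of -0.51 ± 0.45 (SD, n = 2) and a limma adjusted p of 0.533. Lrp2, an endocytic receptor gene, had a mean of -0.29 ± 0.28. Scube1 and Scube2, of a family whose secreted proteins help release the ligand, had means of -0.26 ± 0.16 and -0.23 ± 0.19. Smo, which encodes the transducer Smoothened, read -0.10 and -0.23, and Sufu, which encodes an inhibitor of GLI factors, read 0.0010 and 0.12.

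The 22 genes listed as downstream of hedgehog in the mesenchyme of mouse organs were all measured and none passed (limma), against 0.328% of all genes. At an unadjusted p under 0.05 (limma), 5 were lower in knockout, against 2.46% of all genes, and 1 was higher, against 420 of all 20104. The 22 genes had medians of -0.32 on replicate 1 and -0.07 on replicate 2. Below 0 on both arrays were 11, against 24.6% of all genes, and above 0 on both were 3, against 21.7%. Myocd, the co-activator gene of smooth muscle differentiation, had the lowest mean of the list, at -0.44 ± 0.33 (SD, n = 2; limma adjusted p = 0.610), with intensities on replicate 1 of 1845 in knockout and 2951 in control. Osr1, a zinc finger gene of early urogenital mesenchyme, went the other way with a mean of 0.34 ± 0.11. Sox9 had a mean of -0.32 ± 0.29 and Tshz3, needed in the mouse for ureteral smooth muscle, one of -0.31 ± 0.32. Foxf2, the paralogue of Foxf1, read -0.47 and 0.19 from a dim probe, with intensities on replicate 1 of 130 in knockout and 179.8 in control, and -0.95 and 0.44 with Agilent's processed signals.

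Other cell types were read from their markers, since a different mix of cells would move whole-ureter signals. Of 10 urothelium genes, 5 passed and were higher in knockout (Upk3a, Upk1a, Upk1b, Upk3b and Pparg), where 0.328% of all genes passed in either direction. The list medians were 0.53 and 0.80. Upk3a rose most, by a mean of 1.55 ± 0.18 (SD, n = 2; limma adjusted p = 0.000882), and Pparg, a regulator of urothelial differentiation, by 0.69 ± 0.04 (adjusted p = 0.04995). None of the following lists had a gene that passed (limma). At an unadjusted p under 0.05 (limma), 2 of 10 endothelial genes were lower in knockout, against 2.46% of all genes. Higher at that p were 1 of 6 kidney genes and 5 of 7 skeletal muscle genes, against 420 of all 20104. The 11 smooth muscle genes measured of 12 had medians of -0.14 and 0.15, the 10 endothelial genes -0.04 and -0.20, and the 6 neural crest and glia genes measured of 8 -0.47 and 0.61. The 6 kidney progenitor and stroma genes had medians of -0.25 and 0.32, the 3 gut epithelium genes measured of 5 had 0.12 and -0.06 with Cdx1 and Cdx2 not above the filter, and the 7 skeletal muscle genes measured of 8 had 0.69 and 0.15. The neural crest, kidney and smooth muscle lists had lower medians on replicate 1 than on replicate 2. So did the 9 hedgehog genes, of which Ptch1, Hhip, Gli3, Foxf1 and Foxl1 differed between arrays by 0.40 to 0.83 and Ihh, Gli1 and Gli2 by 0.014 or less. The part of those lists in the hedgehog ratios was not tested.

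Promoters were searched for the GLI binding motif, since several of these genes are GLI targets. RefSeq promoter windows of 300 bases (GRCm38.p6) were at hand for 5 of the 9 genes, Gli2, Gli3, Hhip, Ihh and Ptch1. The letters TGGGTGGTC occur on either strand in 83 of 32851 windows (0.253%) and in none of the 5. The core GGTGGTC, which the longer motif contains, occurs in 2.80% of windows and in none of the 5, and GTGGTC in 11.6% and in that of Gli3 only. These counts describe the letters of those windows alone.

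**Figure D5:**
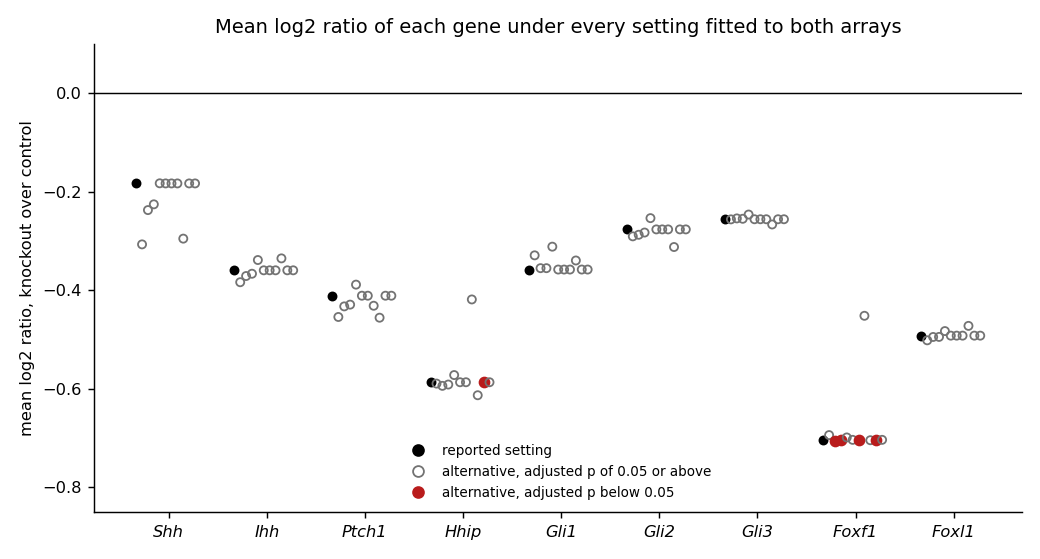
Mean log2 ratio of knockout over control of each hedgehog gene as reported (filled black) and under each of 10 other settings fitted to both arrays (open, or red where the adjusted p was below 0.05). Every mean lies below 0, Foxf1 passed the threshold in 4 settings and Hhip in 1, and the mean over probes brings Foxf1 to -0.45 and Hhip to -0.42. Settings that change only the filter or the test have the same means as reported.

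Across 10 other ways of processing both arrays, all 9 mean ratios stayed below 0. With other filters on dim probes, an intensity trend in the prior or unpaired channels, the means equalled those reported. Those settings changed only the genes kept or the test, so they do not check the sign. Averaging over probes moved only Ptch1, Hhip and Foxf1. Foxf1 passed the test in 4 of the 10, and its limma adjusted p over all 10 ranged from 0.0108 to 1.00. Hhip passed in 1 of the 10, with a range of 0.0401 to 1.00. Shh, Ihh, Ptch1, Gli1, Gli2, Gli3 and Foxl1 passed in none. Averaged over its probes, Foxf1 had a mean ratio of -0.45, which is over 1.5 times smaller than with the brighter probe. As reported, all 9 genes were below 0 on replicate 1 and 8 of 9 on replicate 2, with Gli3 the exception there. With median centring in place of loess 7 of 9 were below 0 on both arrays, since Foxl1 read 0.0061 on replicate 2.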

How the data were processed

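Values were made from dissected E14.5 ureters on 2 dye-swapped Agilent arrays, from 150 ng of total RNA per the labels' protocols. The authors read spot intensity with Agilent Feature Extraction 10.7.3.1, as the submitters' processing notes and the file headers record. Per the file headers, the deposited arrays hold processed intensity too, and a log10 red over green ratio. A further deposited table holds a score for each probe (a signed fold with a median of 1 on each array) whose scaling, centring and floor no source used here states. Against red over green its signed log2 had correlations of 0.822 (replicate 1) and -0.739 (replicate 2), which is control over knockout on both by the dyes. It served only as an alternative, turned round.

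Computed here were normexp background correction (offset 50), loess within arrays, the mean of the 4 spots of a probe without outlier-marked spots (3.52% and 3.66%), and the sign by the labelled dyes. No spot was saturated. Well above background were 69.0% of knockout and 67.4% of control signals on replicate 1, and 66.6% of knockout and 68.5% of control on replicate 2. A probe was kept with at least 2 spots well above background on both arrays in 1 genotype (26522 of 39429), and a gene was its brightest kept probe. Both ratios of a gene were tested against 0 in limma 3.58.1 under R 4.3.3 (two-sided, Benjamini-Hochberg over 20104 genes, 1 residual degree of freedom, prior of 9.21). Tested on simulated data, this step recovered most planted changes but called more unchanged genes than the threshold allows. Names came from the files, updated through RefSeq (28328 probes by accession, 3400 by symbol, 243 by older symbol, 7458 unchanged).

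The 9 genes and all lists were chosen with earlier results of these data known. All 9 are named with every probe; of each other list, genes that passed and up to 4 with the largest absolute mean are named. Smo, Sufu, Foxf2, Tbx18, Dcn and the genes that share probe letters were named after their values were seen. Plots were drawn with matplotlib 3.10.9.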

Additional observations from a re-analysis of the deposited data

Results flagged for a closer look

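Gli3 is listed because it was the only one of the 9 hedgehog genes whose ratio had opposite signs on the female and the male array, as 53.7% of all genes tested did. On the female array its log2 ratio of knockout over control was -0.58 and on the male array 0.07, a gap of -0.64 (female minus male); Foxl1, with the same sign on both, had a larger gap of -0.83. The difference was not tested, since each sex had 1 array, and dye orientation changed with sex.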

How the results depend on the processing

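Across all genes, 66 passed as reported, 194 with Agilent's processed signals, 131 with a normexp offset of 0, 115 without background correction, 191 with the authors' deposited table, 156 with an intensity trend in the prior and 26 with the 4 channels unpaired. With median centring and with no filter on dim probes 0 passed (limma), where 347 and 1097 genes had an unadjusted p under 0.05; the cause was not tested. Of the hedgehog genes, 0 passed as reported, 1 with an offset of 0, without background correction or with a stricter filter (Foxf1 each time), and 2 with the trend (Foxf1 and Hhip). With median centring 7 in place of 8 of the 9 genes were below 0 on both arrays. Without replicate 1 the median of the 9 genes was -0.27, and without replicate 2 it was -0.58; Gli3 turned sign, to a log2 ratio of 0.066 without replicate 1, and no other hedgehog gene did under either. No wider pathway gene passed in any of the 10 settings fitted to both arrays. The reported test pairs knockout and control by array. The limit is the number of arrays, and for dim probes such as those of Shh, the second Foxf1 and the second Gli1 probe, the signal over background.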
